A study of Homo sapiens with 15 samples.

Results

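S100 proteins are small calcium sensors, and 10 of their genes were listed here by symbol: S100A2, S100A3, S100A4, S100A6, S100A10, S100A11, S100A13, S100A14, S100A16 and S100P. Of the 10 listed genes, 9 matched 1 row each among the 16604 genes of the expression table. S100P was not analysed here. The genes were listed by name, with earlier results of these data known. All 9 entered the tests described below.

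Each S100 protein carries a pair of EF-hands, the helix-loop-helix folds that hold calcium, and most work as dimers. When calcium binds, the dimer opens a surface that grips partner proteins such as annexins, myosin heavy chain, ezrin or p53, and several members are also released from cells and bind receptors such as AGER (RAGE). Most human members lie in a cluster on chromosome 1, beside the genes of the epidermal differentiation complex, and many are made by epithelial cells and their tumours.

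The samples were 15 polyA RNA libraries from 5 cultured human lines with 3 biological replicates each, as the labels describe them. All 5 lines go back to OVCAR4, an established cell line from a high-grade serous ovarian carcinoma. Ovcar4Parental is sensitive to carboplatin and cisplatin, drugs whose platinum crosslinks DNA. Ov4Cis became resistant to cisplatin and Ov4Carbo to carboplatin through culture in increasing amounts of the drug. Ov4Carbo4 and Ov4Carbo7 each grew from 1 cell of Ov4Carbo, so each stands for a single clone. The labels name no drug in the medium at harvest. All values are log2 RPKM (read counts scaled by gene length and library size) after the authors' conditional quantile normalization, so levels of different genes can be compared per length. Depth per sample is unknown.

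Of 13 markers of serous ovarian tumours, 13 were in the table, and their summed level was 902 to 1103 RPKM in the parental replicates against 351 to 634 RPKM over the 12 replicates of the derived lines. PAX8, a transcription factor of Müllerian epithelium, had line means of 5.85 to 6.74 log2 RPKM. WT1, another serous marker, had line means of -5.07 to -1.52. Of 11 leukocyte markers, 3 were in the table, and their sum was at most 6.54 RPKM. The 3 of 6 endothelial markers in the table summed to 4.27 to 40.9 RPKM, mostly CDH5, and the 4 of 8 fibroblast markers to 4.04 to 14.6 RPKM. The Ov4Carbo replicates differed more among themselves than those of other lines: the mean root mean square difference of a replicate from the other 2 was 0.64 to 0.74 log2 units in Ov4Carbo and 0.33 to 0.52 elsewhere. The numbers in the sample titles form 2 series, which the labels do not call batches. The first holds Ov4Carbo replicate 1 with all of Ov4Carbo4 and Ov4Carbo7, and the second the parental line, Ov4Cis and the other Ov4Carbo replicates. Series and line therefore cannot be told apart in Ov4Carbo4 or Ov4Carbo7 against the parental line.

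S100A14 fell in all 4 resistant lines, S100A4 and S100A2 fell in 3 each, and the other 6 members were not called in any of them. Calls needed an adjusted p under 0.05 together with a log2 difference of at least 1 (limma's moderated test, Benjamini-Hochberg adjustment over all genes). Against the parental line, S100A14, S100A4 and S100A2 were called in Ov4Cis, where 15.9% of all genes were called and 7.41% were called lower. In Ov4Carbo the called members were S100A14 and S100A2, with 12.7% of all genes called and 6.93% called lower. Ov4Carbo4 had S100A14, S100A4 and S100A2, with 15.1% of all genes called and 7.7% called lower. In Ov4Carbo7 they were S100A14 and S100A4, with 17.0% of all genes called and 7.75% called lower. Every call of a member against the parental line was a decrease. The median log2 difference of the 9 members was 0.00 for Ov4Cis, -0.27 for Ov4Carbo, -0.59 for Ov4Carbo4 and 0.00 for Ov4Carbo7, beside 0.04, 0.03, 0.07 and 0.02 for all genes. Differences among the 5 lines passed limma's moderated F-test for 7 of 9 members, all but S100A6 and S100A10, where 76.9% of all genes passed. With a variance trend in the fit, all 9 passed, but the share of all genes passing in that fit is not given here. Without the size limit, the adjusted p alone was passed by 6 members for Ov4Cis, 4 for Ov4Carbo, 5 for Ov4Carbo4 and 4 for Ov4Carbo7, where 36.2%, 34.0%, 39.7% and 42.6% of all genes passed. These 4 comparisons share the parental samples, and Ov4Carbo4 and Ov4Carbo7 came from Ov4Carbo, so the lines are not independent of each other.

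**Figure D1:**
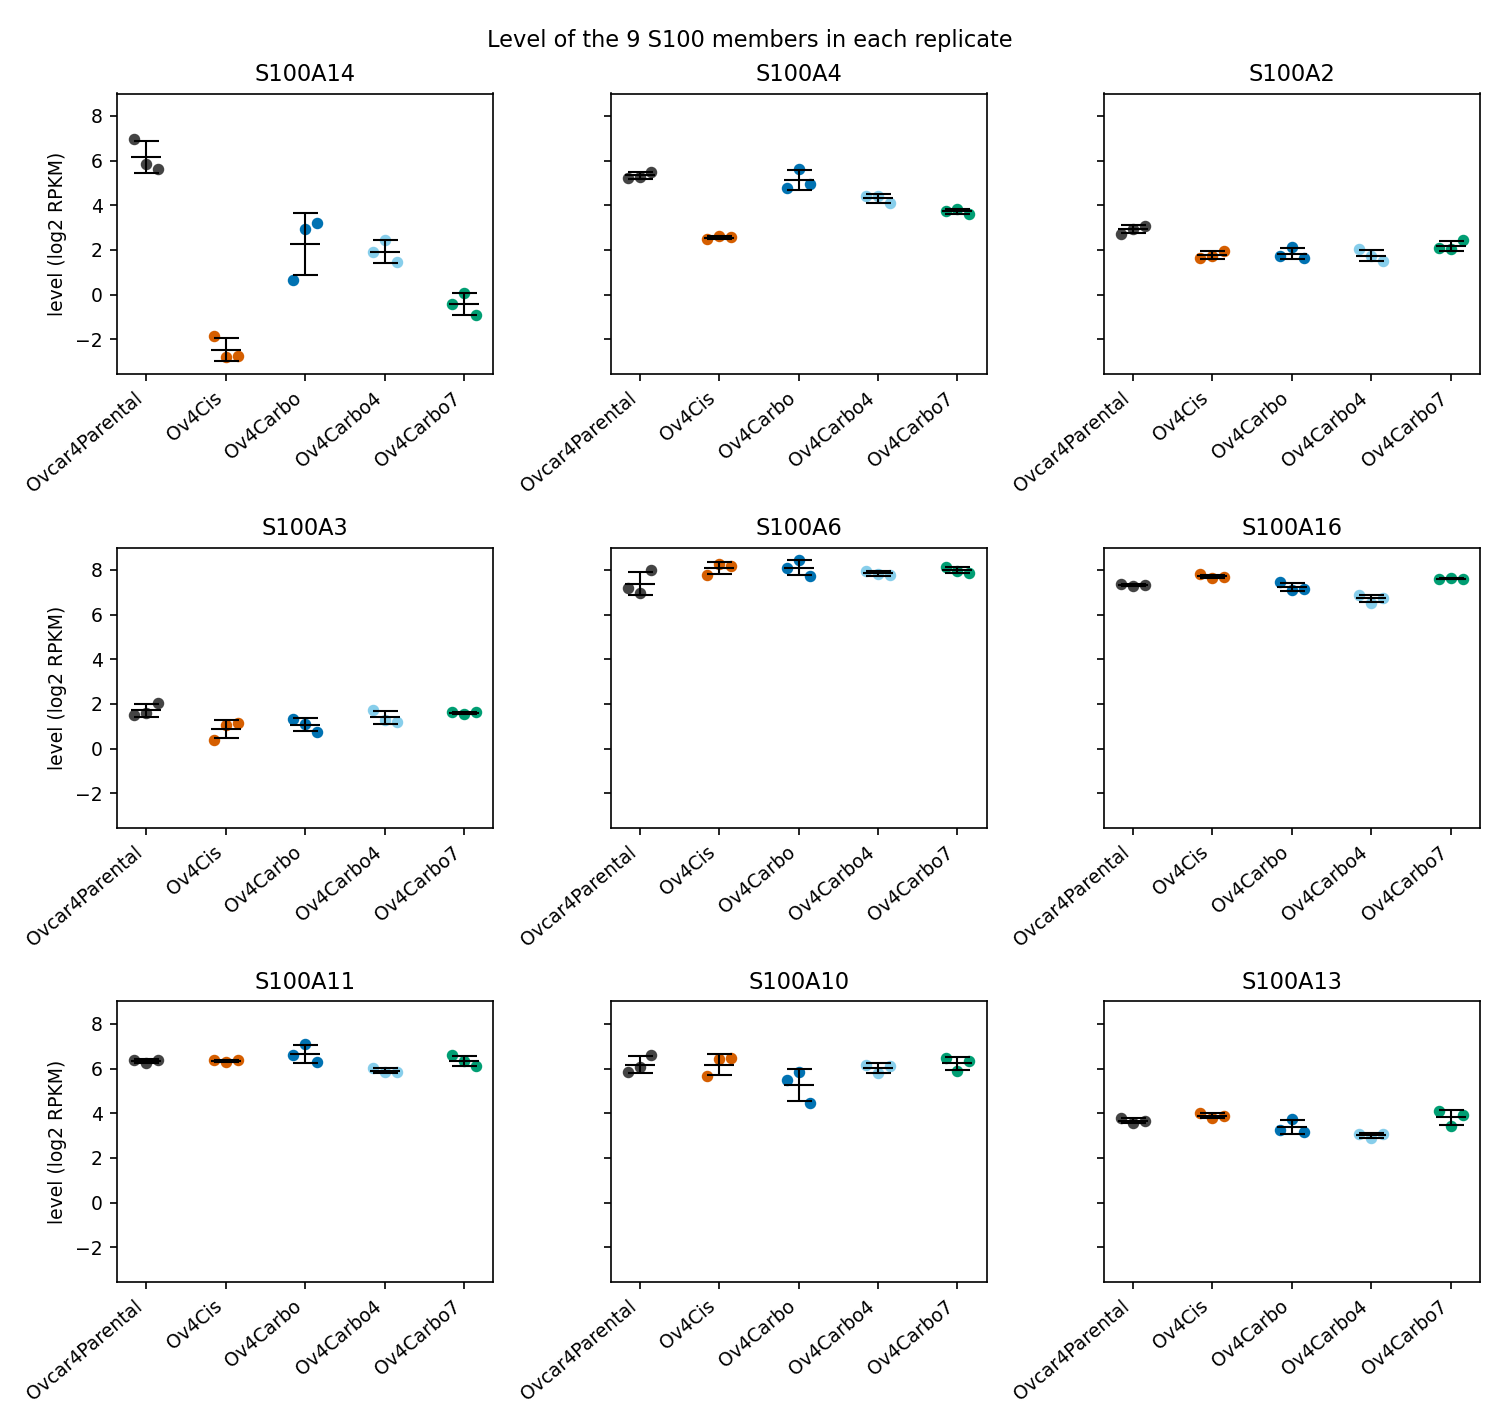
Level of each of the 9 S100 genes in log2 RPKM (y axis) in the 5 lines (x axis). Points are the 3 replicates of a line, and bars are their mean and SD. S100A14 spans the widest range, from 6.95 in a parental replicate to -2.80 in an Ov4Cis replicate, while S100A6 and S100A16 stay above 6.5 in every replicate.

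S100A14 (ENSG00000189334) encodes an epithelial member of the family whose EF-hands bind calcium weakly. Its gene lies on the minus strand of chromosome 1. The 250 bases before its RefSeq start are shown with those of S100A4, the other member with a wide range of levels, and with those of S100A16 and S100A6, which stayed high in all lines. Coordinates are of build GRCh38.p14, and sequences run 5′ to 3′ on the minus strand, which is each gene's own. Capitals mark CAGGTG or its reverse complement CACCTG, an E-box to which repressors of epithelial genes such as the ZEB and SNAI factors are known to bind, and TATAAA, the TATA box, searched on the gene's strand. The S100A14 window is chr1:153616326-153616575, that of S100A4 is chr1:153545807-153546056, that of S100A6 is chr1:153535992-153536241, and that of S100A16, for 1 of 2 RefSeq starts, is chr1:153613138-153613387.
S100A14: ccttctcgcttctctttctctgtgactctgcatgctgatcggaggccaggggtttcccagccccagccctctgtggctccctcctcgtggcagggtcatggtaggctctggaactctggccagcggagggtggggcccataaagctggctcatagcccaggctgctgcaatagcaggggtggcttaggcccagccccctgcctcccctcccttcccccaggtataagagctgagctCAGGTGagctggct
S100A4: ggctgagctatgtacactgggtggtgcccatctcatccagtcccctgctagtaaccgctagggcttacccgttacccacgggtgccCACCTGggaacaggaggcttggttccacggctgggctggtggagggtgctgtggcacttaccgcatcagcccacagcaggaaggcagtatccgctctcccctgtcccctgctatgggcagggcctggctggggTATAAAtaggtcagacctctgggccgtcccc
S100A16: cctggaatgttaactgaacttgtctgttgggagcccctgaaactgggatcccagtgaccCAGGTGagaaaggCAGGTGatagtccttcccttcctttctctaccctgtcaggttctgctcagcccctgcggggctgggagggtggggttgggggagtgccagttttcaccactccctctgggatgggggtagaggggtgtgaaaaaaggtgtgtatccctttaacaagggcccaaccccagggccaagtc
S100A6: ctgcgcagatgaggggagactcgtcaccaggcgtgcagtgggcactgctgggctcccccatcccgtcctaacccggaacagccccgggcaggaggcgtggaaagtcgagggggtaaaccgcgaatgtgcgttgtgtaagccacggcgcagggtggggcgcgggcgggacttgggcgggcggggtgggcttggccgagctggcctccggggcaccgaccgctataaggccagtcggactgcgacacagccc

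The E-box of S100A14 lies 14 to 9 bases before the start and that of S100A4 164 to 159 bases before it. S100A16, whose level stayed high, holds E-boxes as well, 191 to 186 and 178 to 173 bases before this start, while the window of its other RefSeq start holds 0. S100A4 has a TATA box 31 to 26 bases before its start. The S100A6 window holds neither motif and has 24 CpG pairs, against 4 in S100A14, 7 in S100A4, 1 in this S100A16 window and a median of 11 over 35116 RefSeq windows of the same length. An E-box occurred in 17.5% of those windows and TATAAA in 6.8%. The other motifs searched were TGANTCA, the AP-1 site, found in 6.57% of windows, and AACNNGTT, bound by grainyhead-like factors, found in 3.0%, both read on either strand. AP-1 letters occurred in S100A2 at 1 of its 2 starts, 52 to 46 bases before it, and in S100A3, 225 to 219 bases before its start. The other S100A2 start has an E-box 18 to 13 bases before it. A match is only a run of letters, and binding was not measured.

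The parental replicates had S100A14 at 6.95, 5.86 and 5.60 log2 RPKM, a mean of 6.14 ± 0.72 (SD, n = 3), or 76.9 RPKM. In Ov4Cis the values were -1.84, -2.80 and -2.73 (mean -2.46 ± 0.53), or 0.191 RPKM on average. Every Ov4Cis replicate lay below every replicate of any other line, and S100A14 moved from at least the 90.7th percentile of genes in the parental replicates to between the 2.85th and 5.62nd in Ov4Cis. The log2 difference was -8.60 (SE 0.60, limma adjusted p = 2.93e-07). With 1 added to each RPKM before the logarithm, which limits the weight of very low values, it was -5.91.

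The carboplatin-selected lines kept intermediate S100A14 levels. Ov4Carbo had 0.66, 2.95 and 3.20 log2 RPKM (mean 2.27 ± 1.40, SD, n = 3). Its replicate 1, the one in the first title series, was more than 2 log2 units below the other 2 replicates. The difference from the parental line was -3.87 (SE 0.60, limma adjusted p = 0.000409), and -3.07 without replicate 1, also called. Ov4Carbo4 had 1.89, 2.44 and 1.45 (mean 1.93 ± 0.50), a difference of -4.21 from the parental line (adjusted p = 0.000145, limma). Ov4Carbo7 had -0.41, 0.08 and -0.90 (mean -0.41 ± 0.49), a difference of -6.55 (adjusted p = 3.85e-06, limma). All 3 lines lay below every parental replicate. With a term for the title series, estimated from Ov4Carbo alone, the Ov4Carbo4 difference was -1.80 with an adjusted p of 0.0828 by limma, and was not called, and the Ov4Carbo7 difference was -4.14 and called.

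The order of S100A14 was thus Ovcar4Parental, Ov4Carbo, Ov4Carbo4, Ov4Carbo7 and Ov4Cis, and of these neighbours only Ov4Carbo and Ov4Carbo4 overlapped. Ov4Cis was below Ov4Carbo by a log2 difference of -4.73 (SE 0.60, limma adjusted p = 7.34e-05). Between the clones, Ov4Carbo7 was below Ov4Carbo4 by -2.34 (limma adjusted p = 0.00572). Both clones belong to the first title series. Against their source line, Ov4Carbo7 differed by -2.68 (limma adjusted p = 0.00418) and Ov4Carbo4 by -0.34 (adjusted p = 0.67). The Ov4Carbo values depend on replicate 1. Without it, the Ov4Carbo4 difference was -1.15 (limma adjusted p = 0.0524). Within the first title series the Ov4Carbo7 difference from it was -1.07 (limma adjusted p = 0.148), and Ov4Carbo4 was higher than it by 1.27 (adjusted p = 0.0807).

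A list of 26 epithelial genes moved in the same lines. All 26 were in the table, and calls of a decrease numbered 26 for Ov4Cis, 15 for Ov4Carbo, 16 for Ov4Carbo4 and 22 for Ov4Carbo7, with 0 called higher in any of them. The list's median log2 difference from the parental line was -5.78, -1.29, -1.50 and -2.75 in that order, beside 0.04, 0.03, 0.07 and 0.02 for all genes. KRT7, a keratin of simple epithelia, fell from 8.28 ± 0.16 log2 RPKM to -0.57 ± 0.46 in Ov4Cis (SD, n = 3) and to between 5.48 and 6.08 in the other derived lines. ESRP1, a splicing factor of epithelial cells, differed by -9.40, -2.16, -1.72 and -5.79, and GRHL2, a grainyhead-like transcription factor of epithelia, by -9.52, -6.07, -3.90 and -9.95, all called. With the title series term, neither was called in Ov4Carbo4, where ESRP1 was at -0.02 (limma adjusted p = 0.989) and GRHL2 at -0.43 (adjusted p = 0.595), and GRHL2 in Ov4Carbo7 was at -6.48. Of 22 mesenchymal genes, 18 were in the table and moved both ways, with 6 called higher and 4 lower in Ov4Cis, 3 and 6 in Ov4Carbo, 7 and 8 in Ov4Carbo4, and 7 and 5 in Ov4Carbo7. Over all genes, 15.9%, 12.7%, 15.1% and 17.0% were called in these lines, and 7.41%, 6.93%, 7.7% and 7.75% were called lower. TAGLN, an actin-binding protein, and COL1A2, a collagen I chain, were called lower in all 4 lines. Their differences were -6.73 to -4.25 and -5.80 to -4.24. FN1, fibronectin, was called lower in Ov4Carbo (-3.03) and Ov4Carbo4 (-6.92). In bulk RNA, fewer cells of a kind and less RNA per cell cannot be told apart. The part of the epithelial genes in the S100A14 result was not tested.

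The genes whose profile over the 15 samples was most like that of S100A14, after each was centred on its own mean, were PRSS22, TMEM125 and SMIM22. PRSS22, a serine protease of airway and other epithelia, differed from the S100A14 profile by a root mean square of 0.50 log2 units, where the S100A14 profile itself had 2.96. TMEM125 was at 0.80 and SMIM22 at 0.83, among 13263 genes searched. PRSS22 averaged 3.40 log2 RPKM in the parental line, -5.36 for Ov4Cis, 0.49 for Ov4Carbo, -0.27 for Ov4Carbo4 and -2.60 for Ov4Carbo7. A shared order of lines follows from choosing it for likeness over the same samples.

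S100A4 (ENSG00000196154), which binds the heavy chain of non-muscle myosin and is known for its part in cell motility, was low in Ov4Cis and near the parental level in Ov4Carbo. The parental replicates had 5.22, 5.28 and 5.49 log2 RPKM (mean 5.33 ± 0.14, SD, n = 3), or 40.4 RPKM. Ov4Cis had 2.48, 2.61 and 2.56 (mean 2.55 ± 0.07), or 5.87 RPKM, below every replicate of any other line. The log2 difference was -2.78 (SE 0.18, limma adjusted p = 1.98e-07).

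Ov4Carbo replicates had S100A4 at 4.78, 5.63 and 4.95 (mean 5.12 ± 0.45, SD, n = 3). They lay on either side of the parental values, and the difference of -0.21 did not pass the test (limma adjusted p = 0.397). Without Ov4Carbo replicate 2 it was -0.47 (adjusted p = 0.0173), under the size limit, and without replicate 1 it was -0.04. Ov4Carbo7 had 3.76, 3.81 and 3.61 (mean 3.73 ± 0.11), a difference of -1.60 (adjusted p = 2.24e-05, limma). Ov4Carbo4 had 4.42, 4.39 and 4.09 (mean 4.30 ± 0.18), a difference of -1.03 (adjusted p = 0.000775, limma). This last call rests on the size limit: the difference was -0.95 without parental replicate 3, -0.93 without Ov4Carbo4 replicate 3, and -0.99 as log2(RPKM + 1). With the title series term it was -0.52 (adjusted p = 0.203, limma).

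Among the derived lines, Ov4Cis was below Ov4Carbo for S100A4 by a log2 difference of -2.57 (limma adjusted p = 6.56e-07). Ov4Carbo7 was below Ov4Carbo by -1.39 (adjusted p = 0.000137), and was called under all 23 alternative settings. Ov4Carbo4 minus Ov4Carbo was -0.82 (adjusted p = 0.00379) and Ov4Carbo7 minus Ov4Carbo4 was -0.57 (adjusted p = 0.0199), both under the size limit. The former was -0.48 with the title series term and had a limma adjusted p of 0.0524 with only the groups compared. The latter missed the adjusted p without Ov4Carbo4 replicate 1 or 2 or Ov4Carbo7 replicate 3 (limma, 0.0636 to 0.0678). The order was Ovcar4Parental, Ov4Carbo, Ov4Carbo4, Ov4Carbo7 and Ov4Cis, and only the first 2 overlapped. The profiles most like it were MYO5C, an unconventional myosin, at a root mean square of 0.29 log2 units, ZNF165, a zinc finger protein, at 0.29, and LRRC41, a leucine-rich repeat protein, at 0.33, where S100A4 itself had 1.02. MYO5C averaged 2.46 log2 RPKM in the parental line, -0.24 for Ov4Cis, 1.99 for Ov4Carbo, 1.75 for Ov4Carbo4 and 1.00 for Ov4Carbo7.

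**Figure D2:**
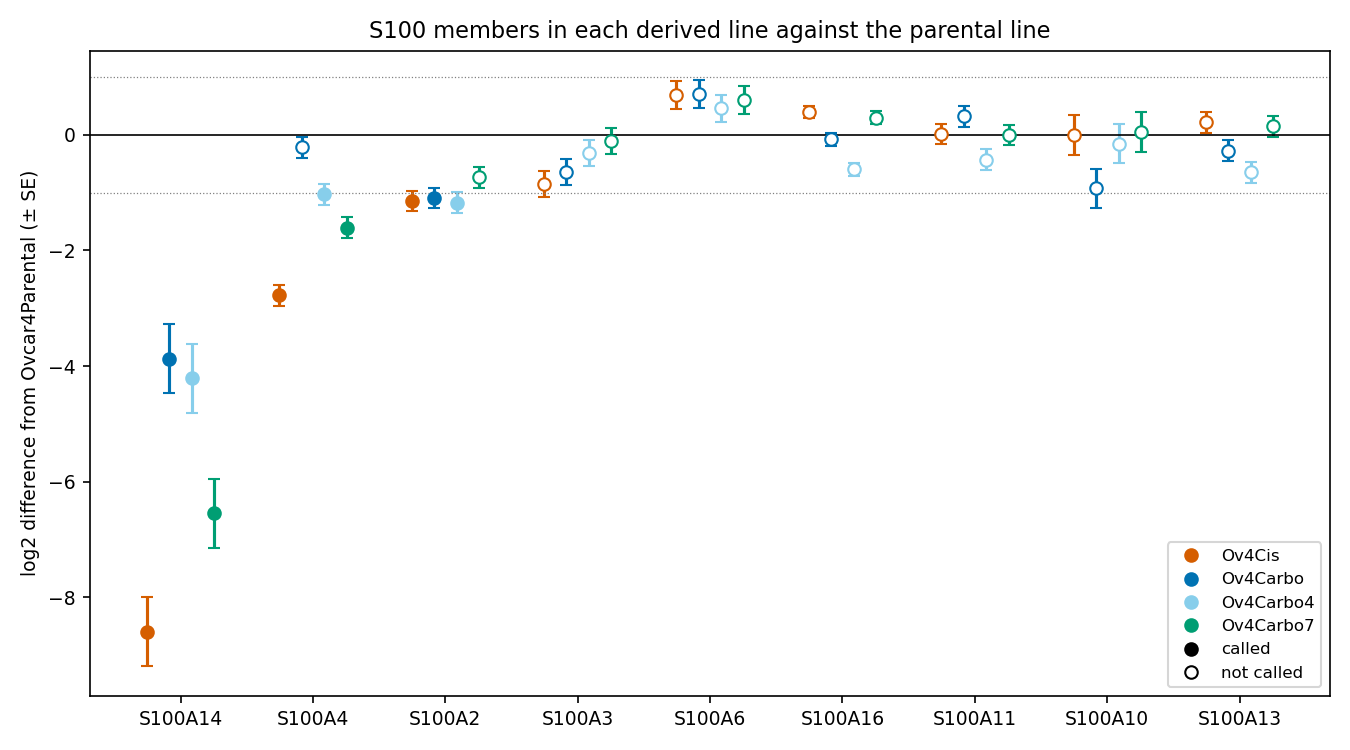
Log2 difference of each S100 gene (x axis) from Ovcar4Parental (y axis) in the 4 derived lines, from the fit over all genes. Bars are the standard error and filled points are called. S100A14 is called in all 4 lines, down to -8.60 in Ov4Cis, and S100A4 in 3, while the points of S100A6, S100A10, S100A11, S100A13 and S100A16 lie within 1 of the parental level.

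S100A2 (ENSG00000196754), a partner of p53 best known from keratinocytes, was modestly lower. The parental replicates had 2.72, 2.95 and 3.08 log2 RPKM (mean 2.92 ± 0.18, SD, n = 3). Ov4Cis had 1.63, 1.74 and 1.97, Ov4Carbo 1.71, 2.12 and 1.65, Ov4Carbo4 2.03, 1.71 and 1.50, and Ov4Carbo7 2.08, 2.03 and 2.44. All 12 derived replicates lay below the 3 parental ones, and the derived lines overlapped with their neighbours in order. Differences were -1.14 in Ov4Cis, -1.09 in Ov4Carbo and -1.17 in Ov4Carbo4 (SE 0.18, limma adjusted p = 0.000261, 0.000574 and 0.000228). In Ov4Carbo7 the difference was -0.74 (adjusted p = 0.00492), under the size limit, and -0.57 with the title series term (limma adjusted p = 0.212). On the log2(RPKM + 1) scale the 3 called values were -0.95, -0.91 and -0.97, so none was called.

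S100A3 (ENSG00000188015), a cysteine-rich member that binds zinc and is known from hair cuticle, had the lowest level of the 9 in the parental line: 1.51, 1.57 and 2.05 log2 RPKM (mean 1.71 ± 0.30, SD, n = 3). Ov4Cis had 0.40, 1.05 and 1.15 (mean 0.86 ± 0.41), and Ov4Carbo 1.34, 1.09 and 0.75 (mean 1.06 ± 0.30). Both lay below every parental replicate, with differences of -0.85 (SE 0.22, limma adjusted p = 0.0102) and -0.65 (adjusted p = 0.0412), under the size limit. The latter passed the adjusted p narrowly and had 0.108 in the fit on only the groups compared. Ov4Carbo4 averaged 1.40 ± 0.28 and Ov4Carbo7 1.60 ± 0.05, and both overlapped with the parental replicates.

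S100A6 (ENSG00000197956), or calcyclin, had the highest mean level of the 9 in all 5 lines, though in the parental line and in Ov4Cis its replicates overlapped with those of S100A16. The parental replicates had 7.19, 6.98 and 7.98 log2 RPKM (mean 7.38 ± 0.53, SD, n = 3), or 174 RPKM. Ov4Cis had 7.76, 8.25 and 8.18, Ov4Carbo 8.10, 8.42 and 7.74, Ov4Carbo4 7.95, 7.80 and 7.76, and Ov4Carbo7 8.14, 7.94 and 7.87. In each derived line at least 1 replicate lay below parental replicate 3, while parental replicates 1 and 2 lay below all 12. Differences were 0.68 in Ov4Cis and 0.71 in Ov4Carbo (SE 0.24, limma adjusted p = 0.0415 and 0.0390), under the size limit, and 0.46 in Ov4Carbo4 and 0.60 in Ov4Carbo7 (adjusted p = 0.154 and 0.0608). Without parental replicate 3, the Ov4Carbo difference was 1.01 (limma adjusted p = 0.00362) and called. Without parental replicate 1 or 2, the Ov4Cis and Ov4Carbo differences were 0.48 to 0.61 (limma adjusted p = 0.108 to 0.171). Their adjusted p was 0.114 and 0.179 with only the groups compared, and 0.0683 and 0.0642 with the replicate block (limma). CACYBP, the calcyclin-binding protein, was named as a partner of S100A6 and not by the naming rule given below. It differed from the parental line by 0.06 to 0.52 and was not called in any derived line. In Ov4Cis, Ov4Carbo and Ov4Carbo7 it passed the adjusted p (limma, 0.0023, 0.00128 and 0.0159) but was under the size limit. S100A6 shares 23 exonic bases, 2.4% of its own, with an antisense transcript.

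S100A16 (ENSG00000188643), a broadly expressed member, had little spread between replicates. The parental values were 7.36, 7.26 and 7.30 log2 RPKM (mean 7.31 ± 0.05, SD, n = 3), or 159 RPKM. Ov4Cis had 7.79, 7.63 and 7.69, Ov4Carbo 7.46, 7.09 and 7.15, Ov4Carbo4 6.86, 6.53 and 6.76, and Ov4Carbo7 7.58, 7.64 and 7.61. Ov4Cis and Ov4Carbo7 lay above the parental replicates, Ov4Carbo4 below them, and Ov4Carbo overlapped with them. Ov4Cis differed by 0.40 (SE 0.11, limma adjusted p = 0.0147) and Ov4Carbo7 by 0.30 (adjusted p = 0.0480). Ov4Carbo4 differed by -0.59 (adjusted p = 0.00117), and each of these values was under the size limit. For Ov4Carbo7, leaving out any 1 replicate of either line gave a limma adjusted p of 0.0649 to 0.127. With the title series term Ov4Carbo7 was at -0.04 (limma adjusted p = 0.893) and Ov4Carbo4 at -0.93 (adjusted p = 0.00216). The clones differed by 0.89, Ov4Carbo7 above Ov4Carbo4 (SE 0.11, limma adjusted p = 3.5e-05), in the direction opposite to that of S100A14, its neighbour on the chromosome.

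S100A10 and S100A11 are the annexin-binding members. S100A10 (ENSG00000197747), also called p11, does not need calcium, and with annexin A2 it forms a complex that binds plasminogen at the cell surface. Its parental replicates had 5.85, 6.08 and 6.61 log2 RPKM (mean 6.18 ± 0.39, SD, n = 3), and Ov4Carbo had 5.46, 5.86 and 4.44 (mean 5.25 ± 0.73). Ov4Cis, Ov4Carbo4 and Ov4Carbo7 averaged 6.17, 6.02 and 6.23. All neighbours in order overlapped, and no difference was called. The Ov4Carbo difference from the parental line was -0.92 (SE 0.34, limma adjusted p = 0.0526), and it was called without parental replicate 1 (-1.09, adjusted p = 0.0477) or without Ov4Carbo replicate 2 (-1.22, adjusted p = 0.0203). Ov4Carbo7 was above Ov4Carbo by 0.97 (limma adjusted p = 0.0403), just under the size limit. This gap was 1.08 to 1.27 without Ov4Carbo replicate 1, Ov4Carbo replicate 2 or Ov4Carbo7 replicate 2, each called. It missed the adjusted p with only the groups compared (0.117), the replicate block (0.0661) and the title series term (0.319, all limma). Without Ov4Carbo replicate 3, the lowest at 4.44, it was 0.57 (limma adjusted p = 0.152). The Ov4Carbo difference from the parental line was then -0.52 (adjusted p = 0.195).

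S100A11 (ENSG00000163191), which binds annexin A1, had parental values of 6.39, 6.23 and 6.39 log2 RPKM (mean 6.34 ± 0.09, SD, n = 3). Ov4Carbo4 had 6.04, 5.85 and 5.85 (mean 5.91 ± 0.11), below every replicate of the other lines. Its difference from the parental line was -0.43 (SE 0.18, limma adjusted p = 0.0731) and from Ov4Carbo -0.75 (adjusted p = 0.00512), under the size limit. With only the groups compared, the limma adjusted p was 0.0148 against the parental line, and 0.05 against Ov4Carbo, which missed the limit. Ov4Cis, Ov4Carbo and Ov4Carbo7 differed from the parental line by 0.01, 0.32 and 0.00. Reads of S100A11 may be shared with its pseudogenes S100A11P1 and S100A11P2, which are in the table at line means of 2.00 to 2.40 and 1.39 to 1.83 log2 RPKM, so its level is uncertain.

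S100A13 (ENSG00000189171), which takes part in the unconventional release of FGF1 and interleukin 1 alpha, had parental values of 3.78, 3.55 and 3.66 log2 RPKM (mean 3.67 ± 0.11, SD, n = 3). Ov4Carbo4 had 3.06, 2.90 and 3.09 (mean 3.02 ± 0.11), below every replicate of the other lines, with a difference of -0.65 (SE 0.18, limma adjusted p = 0.0124), under the size limit. With the title series term the Ov4Carbo4 difference was -0.45 (limma adjusted p = 0.329). Ov4Carbo7 was above Ov4Carbo4 by 0.80 (adjusted p = 0.00264). The other 3 derived lines differed from the parental line by -0.27 to 0.22. S100A13 shares 235 exonic bases, 10.6% of its own, with S100A1 on the other strand, and 24.2% with another transcript on its own strand. Whether the authors counted by strand is not given in the sources used here, so both S100A13 and S100A1 are uncertain.

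Summed over the 9 members, the level was 629 ± 84.2 RPKM in the parental line (SD, n = 3). Ov4Cis had 662 ± 56.0, Ov4Carbo 632 ± 121, Ov4Carbo4 498 ± 38.2 and Ov4Carbo7 643 ± 46.8. Parental replicates spanned 542 to 710 RPKM. Ov4Cis and Ov4Carbo7 lay within that range, Ov4Carbo reached beyond it on both sides, at 509 to 751, and Ov4Carbo4 lay below it, at 468 to 541. The make-up of the sum is given without a test. S100A6, S100A10, S100A11 and S100A16 together held at least 71.0% of the sum in each parental replicate, and at least 95.6% for Ov4Cis, 89.4% for Ov4Carbo, 91.5% for Ov4Carbo4 and 94.1% for Ov4Carbo7. S100A6 alone made up 27.2% ± 7.15 in the parental line and 39.4% to 46.0% on average in the derived lines.

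The direct comparisons of derived lines followed the same genes. Between Ov4Cis and Ov4Carbo, 2 of 9 members were called, S100A14 and S100A4, both lower in Ov4Cis, with 13.8% of all genes called and 5.9% called lower. Ov4Carbo7 against Ov4Carbo gave the same 2, both lower in Ov4Carbo7, with 13.3% of all genes called and 5.62% called lower. Between the clones only S100A14 was called, lower in Ov4Carbo7, with 20.9% of all genes called and 9.86% called lower. For Ov4Carbo4 against Ov4Carbo, limma called 0 of 9, with 14.2% of all genes called and 6.64% called lower. At adjusted p alone, 3 members passed there (S100A4, S100A11 and S100A16, all lower in Ov4Carbo4), where 42.2% of all genes passed. By the same measure 3 passed between Ov4Cis and Ov4Carbo (34.2% of all genes), 4 between Ov4Carbo7 and Ov4Carbo (36.6%) and 4 between the clones (51.1%). In the fit on only the groups compared, S100A4, S100A11 and S100A16 missed the adjusted p for Ov4Carbo4 against Ov4Carbo (limma, 0.0524, 0.05 and 0.0554). With the title series term S100A4 and S100A11 missed it there too.

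All 9 members lie on chromosome 1 in GENCODE v29, and the table's S100 genes run in the order S100A10, S100A11, S100A9, S100A6, S100A4, S100A3, S100A2, S100A16, S100A14, S100A13 and S100A1. From S100A9 onward, genes called in at least 1 derived line alternate with genes called in none: S100A4 and S100A14 are each next to genes that were not called, S100A6 and S100A3 beside the former, and S100A16 and S100A13 beside the latter. Of 18 genes around the cluster 17 were in the table, of which 3 were called lower in Ov4Cis and in Ov4Carbo7 each and 1 in each of the others, and 1 was called higher in Ov4Carbo7. The share of all genes called lower was 7.41% for Ov4Cis, 6.93% for Ov4Carbo, 7.7% for Ov4Carbo4 and 7.75% for Ov4Carbo7. NPR1, the receptor of atrial natriuretic peptide, was called lower in all 4 lines. It fell from 3.77 ± 0.47 log2 RPKM in the parental line (SD, n = 3) to 0.28, 0.16, 1.11 and -1.04. SLC27A3, an acyl-CoA synthetase, was called lower in Ov4Cis (-2.49) and Ov4Carbo7 (-2.30). Of 25 genes of the epidermal differentiation complex 1 was in the table, FLG, which encodes filaggrin. It was called higher in Ov4Cis by 5.95 from a parental mean of -6.96 log2 RPKM, near the lowest values of the table.

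**Figure D3:**
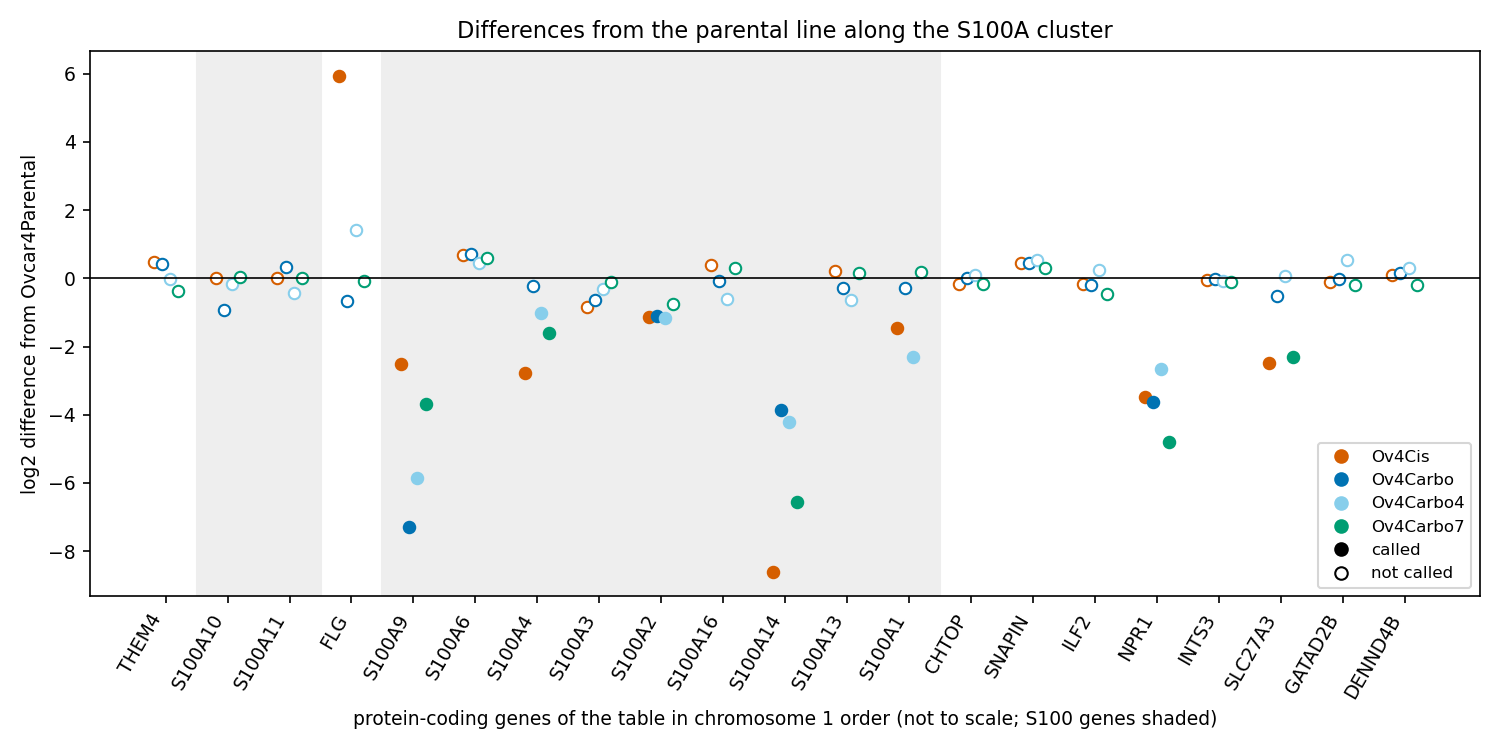
Log2 difference from Ovcar4Parental (y axis) of genes of the table in chromosome 1 order (x axis, not to scale), with the S100 genes shaded. Filled points are called. S100A14, S100A9 and NPR1 are called lower in all 4 derived lines, while S100A6, S100A16 and S100A13 lie within 1 of the parental level.

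Of 12 other S100-related genes listed, 4 were in the table. S100A9 (ENSG00000163220), known as a subunit of calprotectin in neutrophils, was called lower in all 4 derived lines. The parental replicates had 2.38, 1.11 and 1.85 log2 RPKM (mean 1.78 ± 0.64, SD, n = 3), Ov4Cis 0.07, -1.33 and -0.92, and Ov4Carbo -5.67, -5.75 and -5.07. Ov4Carbo4 had -4.29, -3.92 and -4.03, and Ov4Carbo7 -1.87, -2.47 and -1.37. No neighbours in this order overlapped. The lowest line was here Ov4Carbo, and not Ov4Cis as for S100A14. Ov4Cis differed by -2.51, Ov4Carbo by -7.28, Ov4Carbo4 by -5.86 and Ov4Carbo7 by -3.68 (SE 0.39, limma adjusted p = 0.000298, 1.47e-07, 3.94e-07 and 1.33e-05). As log2(RPKM + 1) they were -1.46, -2.13, -2.08 and -1.81. Ov4Cis was above Ov4Carbo by 4.77 (limma adjusted p = 2.21e-06). As log2(RPKM + 1) the gap was 0.68 and was not called, as both lines were low.

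S100A1 (ENSG00000160678), known from heart and skeletal muscle, was lower in Ov4Cis and Ov4Carbo4. Its parental values were 3.72, 2.53 and 2.84 log2 RPKM, those of Ov4Cis 1.70, 1.89 and 1.16, and those of Ov4Carbo4 0.66, 0.84 and 0.69. Both lines lay below the parental replicates, with differences of -1.45 (SE 0.34, limma adjusted p = 0.00500) and -2.30 (adjusted p = 0.000203), the latter -1.64 with an adjusted p of 0.0601 under the title series term. Ov4Carbo and Ov4Carbo7 overlapped with the parental line, at means of 2.76 ± 0.39 and 3.22 ± 0.59 (SD, n = 3). The clones were thus 2.49 apart, Ov4Carbo7 above Ov4Carbo4 (limma adjusted p = 6.81e-05).

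S100Z (ENSG00000171643), which can pair with S100P, was at or below -0.62 log2 RPKM in all 15 replicates. It was called higher in Ov4Cis (2.15, limma adjusted p = 0.000419) and Ov4Carbo7 (1.87, adjusted p = 0.00107). As log2(RPKM + 1) these differences were 0.45 and 0.36 and were not called. S100PBP (ENSG00000116497), which encodes a binding protein of S100P and is no S100 gene itself, had line means of 3.08 to 3.77 log2 RPKM. It was highest in Ov4Carbo4, by 0.69 over the parental line (SE 0.12, limma adjusted p = 0.000824), under the size limit. With the title series term this difference was 1.01 (limma adjusted p = 0.00318) and called.

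**Figure D4:**
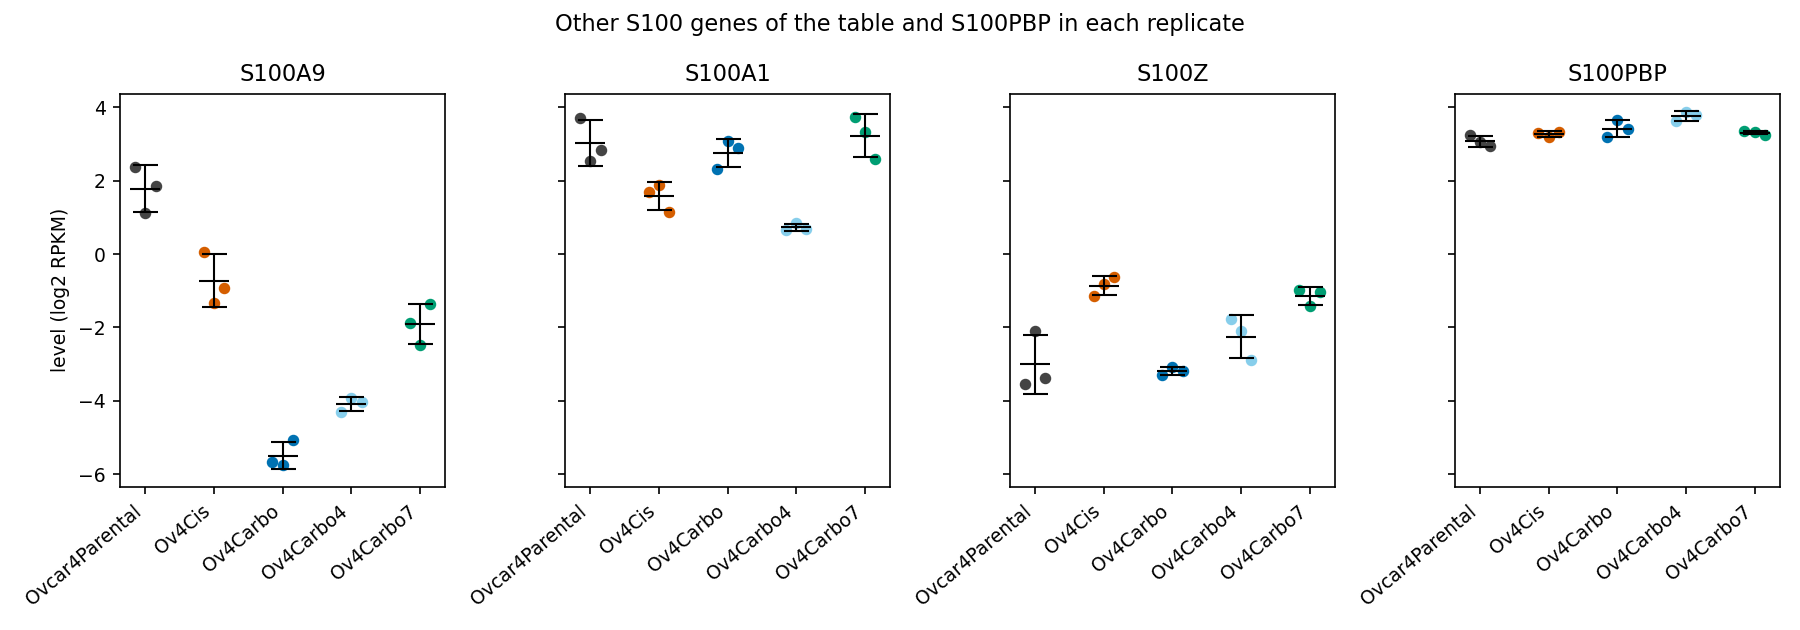
Level in log2 RPKM (y axis) of S100A1, S100A9, S100Z and S100PBP in the 5 lines (x axis). Points are the 3 replicates of a line, and bars are their mean and SD. S100A9 falls from a parental mean of 1.78 to -5.50 in Ov4Carbo, and S100A1 is lowest in Ov4Carbo4.

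Annexins are membrane-binding proteins that S100 dimers bridge. Of 12 listed, 9 were in the table, with 1 called higher and 2 lower in Ov4Cis, 1 lower in Ov4Carbo, 4 lower in Ov4Carbo4 and 1 lower in Ov4Carbo7. Of all genes, 7.41%, 6.93%, 7.7% and 7.75% were called lower in these lines. The median log2 difference of the annexins was -0.15, -0.22, -0.73 and -0.26, beside 0.04, 0.03, 0.07 and 0.02 for all genes. ANXA9 was called lower in all 4 lines, by -3.83, -4.60, -3.29 and -3.04 from 2.02 ± 0.16 log2 RPKM (SD, n = 3). In Ov4Carbo7, ANXA9 was at -1.97 with the title series term. ANXA3 was called lower in Ov4Cis (-1.28; -0.97 and not called without Ov4Cis replicate 1) and Ov4Carbo4 (-1.21), and ANXA5, which binds phosphatidylserine, in Ov4Carbo4 (-1.41, limma adjusted p = 1.81e-06). ANXA2, the partner of S100A10, was named after its values were seen. Its differences were -0.19, -0.26, -0.73 and -0.26, and none was called.

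Of 18 other binding partners 16 were in the table, with 2 called higher and 1 lower in Ov4Cis, 1 and 4 in Ov4Carbo, 1 and 3 in Ov4Carbo4, and 1 and 0 in Ov4Carbo7. Over all genes, 15.9%, 12.7%, 15.1% and 17.0% were called in these lines, and 7.41%, 6.93%, 7.7% and 7.75% were called lower. EZR, ezrin, which links membrane to actin, was called lower in Ov4Carbo4 (-1.67, SE 0.17, limma adjusted p = 1.32e-05). DYSF, the membrane repair protein dysferlin, was called lower in Ov4Carbo (-1.40) and Ov4Carbo4 (-1.60), and higher in Ov4Cis (1.08). Its Ov4Cis call was lost without parental replicate 1 (0.98) or 3 (0.95). DYSF in Ov4Carbo4 was at -2.54 with the title series term. TPM1, tropomyosin 1, was called lower in Ov4Carbo (-1.38), but not in the fit on only the groups compared (limma adjusted p = 0.0523). With the title series term TPM1 was also called in Ov4Carbo4 (-1.99) and Ov4Carbo7 (-1.79). Without parental replicate 1 it was called in Ov4Cis (-1.18) and Ov4Carbo4 (-1.19), and without Ov4Cis replicate 2 or 3 in Ov4Cis (-1.14 and -1.17). MYH9, the myosin heavy chain that S100A4 binds, was named after its values were seen and was not called in any derived line (-0.90, -0.93, -0.63 and -0.59). It was near the size limit: with the title series term MYH9 was called in Ov4Carbo (-1.16), Ov4Carbo4 (-1.32) and Ov4Carbo7 (-1.28). It was also called without parental replicate 1 in Ov4Cis (-1.06) and Ov4Carbo (-1.09), without Ov4Cis replicate 2 in Ov4Cis (-1.03), and without Ov4Carbo replicate 1 in Ov4Carbo (-1.16).

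Of 9 receptors or surface proteins that bind secreted S100 proteins, 7 were in the table, and 0 were called in Ov4Cis by limma, 1 in Ov4Carbo, 3 in Ov4Carbo4 and 1 in Ov4Carbo7, all lower. The share of all genes called lower was 7.41%, 6.93%, 7.7% and 7.75% in these lines. ALCAM, a cell adhesion molecule, was called lower in Ov4Carbo (-1.34) and Ov4Carbo4 (-3.63, SE 0.27, limma adjusted p = 9.02e-07). MCAM, another adhesion molecule, was called lower in Ov4Carbo7 (-3.01), and EGFR, the epidermal growth factor receptor, in Ov4Carbo4 (-1.30). The EGFR call was lost under the title series term (-1.23, limma adjusted p = 0.0865). In Ov4Cis, EGFR was called without parental replicate 1 or 2 or without Ov4Cis replicate 2 or 3 (-1.17 to -1.01), and MCAM in Ov4Carbo was called without Ov4Carbo replicate 1 (-1.03). Of 11 genes of the plasminogen system, which S100A10 and annexin A2 bind at the surface, 8 were in the table, with 1 called higher in Ov4Cis, 2 lower in Ov4Carbo, 1 lower in Ov4Carbo4, and 1 higher and 1 lower in Ov4Carbo7. The share of all genes called in either direction was 15.9%, 12.7%, 15.1% and 17.0% in these lines. Among the plasminogen system genes called lower were SERPINE2, an inhibitor of plasminogen activators (-4.52 in Ov4Carbo4), and PLAU, urokinase (-1.67 in Ov4Carbo7). With the title series term PLAU was at -1.16 (limma adjusted p = 0.258) and was not called. SERPINE2 in Ov4Carbo was called without Ov4Carbo replicate 1 (-1.13) or 3 (-1.05).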

How the data were processed

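RNA was extracted from 15 cultures with a column kit and sequenced as polyA libraries, per the labels' protocols. The authors deposited log2 RPKM, corrected by conditional quantile normalization (cqn) according to the table's name, which also mentions a threshold whose rule is not given. The submitters' processing notes name BWA 0.7.15-r1140, HTSeq, hg19 and GRCh37, without their roles. The table holds 16604 genes, 16448 with a symbol, and 0 missing values. Every sample has a median of 2.77, so differences in total RNA cannot be seen, and the lowest values, -8.18 to -7.68 by sample, make log2 differences of very low genes uncertain in size.

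From these values limma 3.58.1 (R 4.3.3; lmFit, eBayes, two-sided) fitted a model with 1 coefficient per line over all genes and 15 samples, with Benjamini-Hochberg adjustment over all genes in each of 8 contrasts. The fit was tested on simulated data. Alternatives were median centring, log2(RPKM + 1), a filter at mean log2 RPKM 1 (12037 genes), a variance trend, a replicate block, a title series term, a fit on only the compared groups, adjusted p alone and leaving out each replicate. Values within each title series were added after seeing the data.

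Members, lists and tests were chosen with earlier results of these data known. All members and the other S100 genes were named. From each list, up to 3 called genes with the largest difference from the parental line were named, where groups did not overlap and the higher mean was at least log2 RPKM 1. Some genes that this rule selects are not reported here. Likeness was measured for members whose line means span 2 or more, among genes whose highest line mean is at least 1. Marker lists were used for identity only. Promoter windows are from RefSeq (GRCh38.p14), and gene order and overlaps from GENCODE v29. Summaries used pandas 2.3.3 under Python 3.11.15, and plots matplotlib 3.10.9.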

Additional observations from a re-analysis of the deposited data

How the results depend on the processing

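Median centring, the filter on mean level, the variance trend and a fit on only the groups compared changed no call among the 72 member values (9 genes in 8 contrasts). Of those 72, the adjusted p alone crossed its threshold for 6 with the filter, 5 with the variance trend, 11 with only the groups compared and 4 with the replicate block. S100A3 in Ov4Carbo against the parental line was among them, with a limma adjusted p of 0.108 with only the groups compared. The title series term gave 11 such crossings, and leaving out 1 replicate gave 2 to 13, the most without Ov4Carbo replicate 2. Of 15 calls of a member, 9 held under every alternative run, and 0 reversed. By adjusted p alone, the members passing were 6 for Ov4Cis, 4 for Ov4Carbo, 5 for Ov4Carbo4 and 4 for Ov4Carbo7 against the parental line, 3 for Ov4Carbo4 and 4 for Ov4Carbo7 against Ov4Carbo, and 4 between the clones, since the size limit is dropped. On the log2(RPKM + 1) scale, 1 member was called in Ov4Carbo and 1 in Ov4Carbo4, S100A14. With the title series term, 1 member was called in Ov4Carbo4 against the parental line (S100A2) and 1 in Ov4Carbo7 against Ov4Carbo (S100A4), and within the first title series also 1 (S100A4), fits that rest on Ov4Carbo replicate 1. S100A14 in Ov4Carbo7 against Ov4Carbo was -1.07 with the title series term (limma adjusted p = 0.216).

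Shares of all genes called under the alternative fits are not given here, so member counts under them have no background beside them. Leaving out each replicate in turn gave 3 to 3 called members for Ov4Cis, 2 to 3 for Ov4Carbo, 2 to 3 for Ov4Carbo4 and 2 to 2 for Ov4Carbo7 against the parental line. It gave 2 to 3 for Ov4Cis and 0 to 1 for Ov4Carbo4 against Ov4Carbo (S100A10 without Ov4Carbo replicate 2, 1.07, limma adjusted p = 0.0294), 2 to 3 for Ov4Carbo7 against Ov4Carbo, 1 to 1 between the clones, and 6 to 8 members differing among the lines. For S100A10 in Ov4Cis against Ov4Carbo, 0.92 became 1.18 without Ov4Cis replicate 1 and 1.22 without Ov4Carbo replicate 2, both called. Without Ov4Carbo replicate 3 it was 0.51 (limma adjusted p = 0.202), and S100A10 in Ov4Carbo4 against Ov4Carbo was 0.36 (adjusted p = 0.34).

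Whether replicate numbers pair the samples is not settled by these values. Deviations of same-numbered samples correlated from -0.39 to 0.44 over 30 pairs of samples (10 pairs of lines, median -0.02). Of these correlations, 11 exceeded 0.1. With the replicate block, called members stayed at 3, 2, 3 and 2 against the parental line and 2, 0, 2 and 1 in the other contrasts, and 7 differed among the lines. Counting error could not be estimated, as the depth is unknown.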

Other observations

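Other EF-hand calcium sensors, outside the S100 family, moved in both directions. Of 37 listed, 30 were in the table, with 2 called higher and 3 lower in Ov4Cis, 4 and 5 in Ov4Carbo, 3 and 2 in Ov4Carbo4, and 4 and 2 in Ov4Carbo7. Over all genes, 15.9%, 12.7%, 15.1% and 17.0% were called in these lines, and 7.41%, 6.93%, 7.7% and 7.75% were called lower. CALB1, the calcium buffer calbindin, had a mean of 1.11 ± 1.06 log2 RPKM in the parental line (SD, n = 3). It was called lower in Ov4Cis, at -4.34, and called higher in Ov4Carbo, Ov4Carbo4 and Ov4Carbo7, at 5.20, 7.81 and 6.50. EFHD1, a mitochondrial EF-hand protein, was called lower in all 4 lines, by -3.29, -1.89, -3.26 and -2.05 from 3.78 ± 0.18. RCN3, a reticulocalbin of the secretory pathway, was called lower in Ov4Cis (-2.11) and Ov4Carbo (-1.46). The RCN3 call in Ov4Carbo was lost within the second title series (-1.25, limma adjusted p = 0.0596), and RCN3 was called lower in Ov4Carbo4 without parental replicate 3 (-1.04).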
